A study of Mus musculus with 8 samples.

Results

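The genes examined were 10 genes of fatty acid uptake and binding, taken by symbol from the 24940 genes of the deposited liver count table. They were Cd36, Vldlr and Lpl (a fatty acid translocase, a lipoprotein receptor and a lipase), Slc27a1, Slc27a2 and Slc27a4 (fatty acid transport proteins) and Fabp1, Fabp2, Fabp4 and Fabp5 (fatty acid binding proteins). All 10 were present and all 10 passed the expression filter, which kept 12340 genes for testing. Bulk liver RNA was sequenced from 4 male mice labelled FXRKO (Fxr KO, livers 1 to 4) and 4 labelled BCL6LKOFXRKO (Bcl6 LKO Fxr KO, livers 5 to 8). All 8 mice were C57BL/6, homozygous for the floxed Bcl6 allele and homozygous for the whole-body FXR knockout. Livers 5 to 8 additionally carried Alb-Cre, a Cre driven by the Albumin promoter that deletes floxed Bcl6 in hepatocytes, so the presence of Cre and the loss of Bcl6 cannot be told apart here. The sources used here gave no age for these mice, and did not say whether a given mouse had been fed freely or fasted for 4 hours. No liver with intact Fxr was analysed here, so every value compares loss of Bcl6 with its presence on an FXR-deficient background.

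Long-chain fatty acids reach the liver mainly as albumin-bound fatty acids and as triglyceride in lipoproteins. At the cell surface, CD36 takes up fatty acids, lipoprotein lipase frees them from triglyceride-rich particles and the VLDL receptor binds such particles. The fatty acid transport proteins of the SLC27 family couple uptake to activation with coenzyme A, and inside the cell the small fatty acid binding proteins carry the lipid to membranes and organelles. Hepatocytes mainly use FABP1 and the transport proteins FATP2 (Slc27a2) and FATP5 (Slc27a5), while Cd36, Vldlr and Lpl are normally more active in muscle, adipose tissue and macrophages. BCL6 is a transcriptional repressor and FXR is the nuclear receptor for bile acids.

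The stretch around the start site is shown for 2 members that fell, Fabp1 and Slc27a2, and for 2 that rose, Cd36 and Vldlr. Each run is 300 bases from RefSeq on GRCm38.p6 (the mm10 sequence), 5′ to 3′ on the gene's strand, with 250 bases before the annotated start, and capitals mark the motifs described after them.
Fabp1 (chr6:71199629-71199928, plus strand): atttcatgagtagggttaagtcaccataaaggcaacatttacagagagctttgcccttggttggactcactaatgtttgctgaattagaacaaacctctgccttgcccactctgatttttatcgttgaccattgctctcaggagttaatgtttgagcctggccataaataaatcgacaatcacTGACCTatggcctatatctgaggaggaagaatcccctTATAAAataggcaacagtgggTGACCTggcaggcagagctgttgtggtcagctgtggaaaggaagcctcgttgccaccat
Slc27a2 (chr2:126552774-126553073, plus strand): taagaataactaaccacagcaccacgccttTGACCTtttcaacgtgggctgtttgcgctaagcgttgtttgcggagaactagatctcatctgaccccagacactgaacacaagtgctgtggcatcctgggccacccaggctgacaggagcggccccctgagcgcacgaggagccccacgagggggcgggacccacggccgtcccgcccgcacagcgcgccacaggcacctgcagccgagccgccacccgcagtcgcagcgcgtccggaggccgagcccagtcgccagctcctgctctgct
Cd36 (chr5:17835847-17836146, minus strand): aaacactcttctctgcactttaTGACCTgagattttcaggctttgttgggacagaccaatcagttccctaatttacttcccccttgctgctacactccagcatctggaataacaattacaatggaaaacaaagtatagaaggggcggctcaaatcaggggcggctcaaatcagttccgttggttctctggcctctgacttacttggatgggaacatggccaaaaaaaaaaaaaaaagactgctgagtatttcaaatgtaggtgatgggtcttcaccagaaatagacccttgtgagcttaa
Vldlr (chr19:27216770-27217069, plus strand): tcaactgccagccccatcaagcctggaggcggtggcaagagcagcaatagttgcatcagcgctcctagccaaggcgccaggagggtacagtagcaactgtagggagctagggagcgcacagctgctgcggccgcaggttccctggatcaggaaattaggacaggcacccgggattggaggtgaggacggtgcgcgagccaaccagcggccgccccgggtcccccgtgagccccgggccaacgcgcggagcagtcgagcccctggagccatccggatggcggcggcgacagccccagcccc

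RefSeq gave such a stretch for 7 of the 10 genes, in 10 windows, since Slc27a1 has 3 annotated starts and Vldlr has 2. The windows were searched on both strands for 4 words. These were AGGTCA, the half-site bound by nuclear receptors such as the PPARs, which reads TGACCT on the other strand, 2 such half-sites in the same direction with 1 base between them (the DR1 arrangement), the TATAAA box, and TTCNNNGAA, the core letters of both the BCL6 and the STAT5 motif. The half-site stood in 3 of the 10 windows, those of Fabp1, Slc27a2 and Cd36, and in 16.3% of all 32851 windows of the same length. With the start site counted as 0, it lay at -67 to -62 and at -9 to -4 in Fabp1, at -220 to -215 in Slc27a2 and at -228 to -223 in Cd36. TATAAA stood in 1 of the 10 windows, that of Fabp1 at -30 to -25, and in 13.6% of all windows. Neither TTCNNNGAA (8.3% of all windows) nor the exact DR1 word (0.0396%) occurred in any of the 10. The search allowed no mismatch. In Fabp1 the half-site at -67 to -62 is followed by 1 base and then TGGCCT, 1 letter off a second half-site in the same direction. The start that RefSeq gave for Cd36 lay 13896 bases inside the transcript on which its reads were counted, so the Cd36 stretch is not the promoter of that transcript. These matches describe letters in short windows and say nothing of binding.

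The totals on genes were between 7586241 and 11839503 counts per liver, at which 3 counts correspond to between 0.272 and 0.375 CPM (counts relative to a common library size after TMM scaling, a correction for differences in library composition). That floor covers counting error only. Bcl6 was between 21.2 and 65.2 CPM in Fxr KO livers and between 4.61 and 11.9 CPM in Bcl6 LKO Fxr KO livers, so the targeted gene followed the labels. Nr1h4, the gene of FXR, still gave reads in the knockout, 56.7 to 62.6 CPM in Fxr KO livers and 39.4 to 48.1 CPM in Bcl6 LKO Fxr KO livers. The 50 most counted genes held between 29.8% and 31.2% of counts in Fxr KO livers and between 40.7% and 44.1% in Bcl6 LKO Fxr KO livers, and the TMM factors, 1.05 to 1.06 against 0.901 to 0.982, separated the genotypes as well. With scaling by total counts alone, the median log2 fold change of all tested genes was -0.15 in place of 0.01, and 32.3% of the called genes were higher in place of 54.5%. Nothing in the labels says whether the 4 livers of a genotype shared a litter or cage, and the p-values measure the spread between these livers.

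Of the 10 genes, 3 were called higher in Bcl6 LKO Fxr KO livers (Cd36, Vldlr and Lpl), 5 were called lower (Fabp1, Fabp2, Fabp5, Slc27a1 and Slc27a2) and 2 were not called (Fabp4 and Slc27a4), a call being an adjusted p under 0.05 in edgeR's quasi-likelihood test. The same call was given to 16.2% of all tested genes in the upward direction and to 13.5% in the downward direction. In each of the 8 called genes the 4 livers of one genotype lay beyond all 4 of the other, upward in 3 and downward in 5, a separation seen upward in 16.1% and downward in 15.2% of all tested genes. For each of these 8 genes p was 0.029 in an exact permutation test (two-sided), the smallest value that 4 against 4 livers allow. The median log2 fold change of the 10 genes was -0.45, beside 0.01 over all tested genes. The translocase, the lipoprotein receptor and the lipase were thus on one side, and every called transport or binding protein was on the other.

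**Figure D1:**
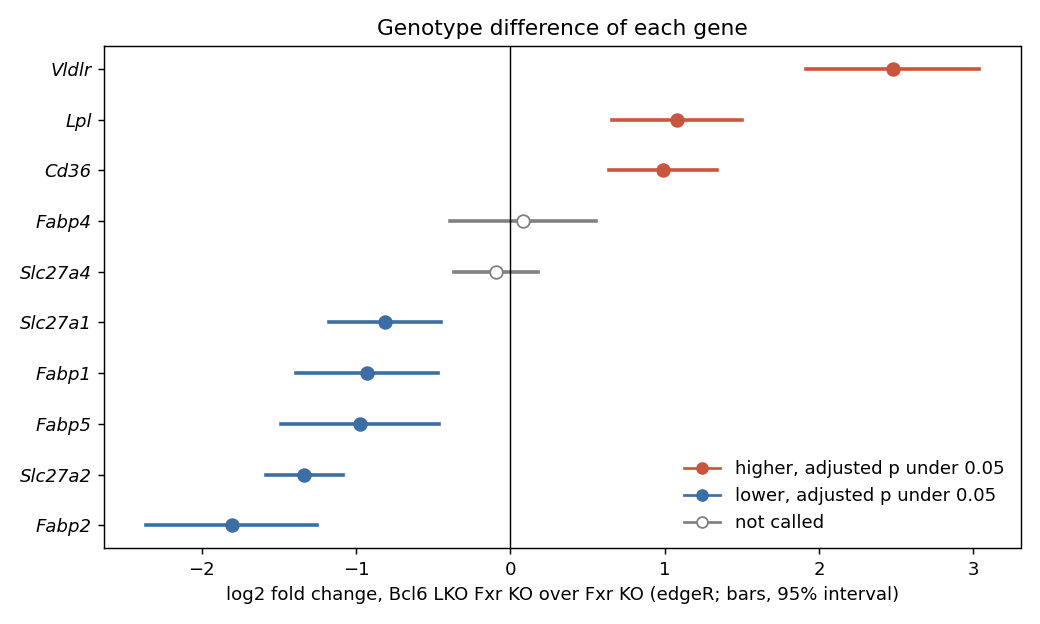
The log2 fold change of each gene in Bcl6 LKO Fxr KO over Fxr KO livers (horizontal axis), with 95% intervals as bars from edgeR's fit on 4 livers per genotype. Red points were called higher, blue points lower, and the open grey points of Fabp4 (0.084) and Slc27a4 (-0.092) have intervals that span 0.

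Vldlr (NM_013703, mm10 chromosome 19 from 27217020 to 27254231, plus strand, 19 exons) encodes the VLDL receptor, which binds apolipoprotein E-rich particles and brings their lipid into the cell. It was at 2.39, 1.37, 1.93 and 2.55 CPM in Fxr KO livers and at 11.6, 7.89, 16.2 and 10.99 CPM in Bcl6 LKO Fxr KO livers. Every Bcl6 LKO Fxr KO liver was well above every Fxr KO liver. The mean rose 5.57-fold, with a 95% interval of 3.78 to 8.20 (log2 fold change 2.48, standard error 0.26, edgeR adjusted p = 1.50e-05). The absolute change was larger than in 97.8% of tested genes. The Fxr KO values rest on few reads, 11 to 27 per liver, against 65 to 166 in the other genotype.

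Cd36 (NM_001159557, chromosome 5 from 17781690 to 17849792, minus strand, 16 exons) encodes a membrane glycoprotein that takes up long-chain fatty acids and oxidised lipoproteins. It was at 121, 85.7, 110 and 135 CPM in Fxr KO livers and at 258, 222, 247 and 170 CPM in Bcl6 LKO Fxr KO livers. The groups did not overlap, and liver 8 was the lowest of its genotype. The mean rose from 113 ± 20.9 to 224 ± 39.6 CPM (SD, n = 4 each), a 1.98-fold difference with a 95% interval of 1.56 to 2.53 (log2 fold change 0.99, standard error 0.16, edgeR adjusted p = 0.00058).

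Lpl (NM_008509, chromosome 8 from 68880555 to 68906932, plus strand, 10 exons) encodes lipoprotein lipase, the enzyme that splits the triglyceride of circulating particles. It was at 20.3, 14.1, 11.2 and 12.8 CPM in Fxr KO livers and at 25.8, 28.5, 28.5 and 40.4 CPM in Bcl6 LKO Fxr KO livers. Liver 8 was here the highest of its genotype, and the gap between the groups lay between liver 1 and liver 5. The rise was 2.11-fold, with a 95% interval of 1.58 to 2.83 (log2 fold change 1.08, standard error 0.19, edgeR adjusted p = 0.00118).

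Slc27a2 (NM_011978, chromosome 2 from 126553024 to 126588243, plus strand, 10 exons) encodes FATP2, a transport protein with very long-chain acyl-CoA synthetase activity. It was at 1468, 1605, 1622 and 1590 CPM in Fxr KO livers and at 557, 669, 647 and 617 CPM in Bcl6 LKO Fxr KO livers. Its replicates were the tightest of the 10 genes, with coefficients of variation of 4.44% and 7.81%. The fall was 2.52-fold (log2 fold change -1.34, standard error 0.11, 95% interval -1.58 to -1.09, edgeR adjusted p = 2.90e-06). A long non-coding RNA, Gm26697, is annotated on the opposite strand over part of its exons, and 11.4% of 100-base windows of the Slc27a2 transcript lie in it. The counting options stated do not name a strand, so reads from the 2 genes cannot be told apart in that stretch.

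Slc27a1 (NM_011977, chromosome 8 from 71568871 to 71587307, plus strand, 14 exons) encodes FATP1, known chiefly from muscle and adipose tissue. It was at 17.9, 19.7, 24.0 and 21.0 CPM in Fxr KO livers and at 9.17, 9.95, 13.3 and 14.4 CPM in Bcl6 LKO Fxr KO livers. The groups did not overlap, and the fall was 1.76-fold (log2 fold change -0.81, standard error 0.17, edgeR adjusted p = 0.00288). Slc27a4 (NM_011989, chromosome 2 from 29802680 to 29817522, plus strand, 13 exons) encodes FATP4, a broadly expressed member of the family. It was at 58.9, 51.2, 50.3 and 45.2 CPM against 43.5, 43.9, 47.3 and 58.0 CPM, and the groups overlapped across most of their range. Its log2 fold change was -0.092 with a 95% interval of -0.37 to 0.18 (edgeR adjusted p = 0.62), so a fall to 0.776 times or a rise to 1.13 times the Fxr KO level lies within its interval.

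Fabp1 (NM_017399, chromosome 6 from 71199879 to 71205034, plus strand, 4 exons) encodes the liver fatty acid binding protein, among the most abundant proteins of the hepatocyte cytosol. It was at 3324, 3682, 4612 and 3365 CPM in Fxr KO livers and at 1391, 1880, 1657 and 2943 CPM in Bcl6 LKO Fxr KO livers. Liver 8 stood above the other three livers of its genotype and close to the lowest Fxr KO liver, but the groups did not overlap. The fall was 1.90-fold (log2 fold change -0.93, standard error 0.21, 95% interval -1.39 to -0.47, edgeR adjusted p = 0.00569). As a share of all counts on genes, Fabp1 went from between 0.351% and 0.490% to between 0.135% and 0.274%.

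Fabp2 (NM_007980, chromosome 3 from 122895072 to 122899506, plus strand, 4 exons) encodes the intestinal fatty acid binding protein, best known from enterocytes. It was at 28.5, 46.2, 54.4 and 43.0 CPM in Fxr KO livers and at 10.3, 11.5, 8.47 and 18.7 CPM in Bcl6 LKO Fxr KO livers. Liver 8 was again the highest of its genotype and still below liver 1, the lowest Fxr KO liver. The fall was 3.50-fold (log2 fold change -1.81, standard error 0.25, 95% interval -2.36 to -1.25, edgeR adjusted p = 0.000326), a larger absolute change than in 96.2% of tested genes. Of 8 enterocyte markers, Cdx1, Cdx2, Sis and Alpi had 0 counts in all 8 livers and Lct had at most 1, Vil1 had 6 to 12 counts in Fxr KO livers and 3 to 8 in Bcl6 LKO Fxr KO livers, and Lgals4 and Apoa4 were counted in every liver, at 7.52 to 24.2 CPM and at 302 to 2135 CPM. Their part in the Fabp2 values was not tested.

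Fabp5 (NM_010634, chromosome 3 from 10012585 to 10016610, plus strand, 4 exons) encodes the epidermal fatty acid binding protein, which macrophages and epithelia express. It was at 59.4, 91.0, 76.0 and 57.6 CPM in Fxr KO livers and at 25.2, 54.9, 29.8 and 35.1 CPM in Bcl6 LKO Fxr KO livers. Liver 6 reached almost to the lowest Fxr KO liver, and the groups did not overlap. The fall was 1.96-fold (log2 fold change -0.97, standard error 0.23, edgeR adjusted p = 0.00972), and without liver 8 it was no longer called (log2 fold change -0.96, edgeR adjusted p = 0.0589). Windows of 100 bases that also occur in other annotated transcripts, Gm6166 and Gm14328, made up 9.01% of its transcript. Reads were kept only where they mapped to 1 location, so the count of Fabp5 is uncertain by what was lost there.

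Fabp4 (NM_024406, chromosome 3 from 10204343 to 10208616, minus strand, 4 exons) encodes the adipocyte fatty acid binding protein, which macrophages and endothelial cells also express. It was at 13.0, 11.5, 6.66 and 10.3 CPM in Fxr KO livers and at 7.65, 11.4, 11.5 and 13.4 CPM in Bcl6 LKO Fxr KO livers. The groups overlapped, and the log2 fold change was 0.084 with a 95% interval of -0.39 to 0.56 (edgeR adjusted p = 0.80). Its sign was negative with scaling by total counts alone (-0.078), with limma voom (-0.051) and without liver 3 (-0.083) or 8 (-0.027). A change of up to 1.47 times the Fxr KO level in the upward direction lies within the interval, so these livers do not show that Fabp4 was the same in both genotypes.

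**Figure D2:**
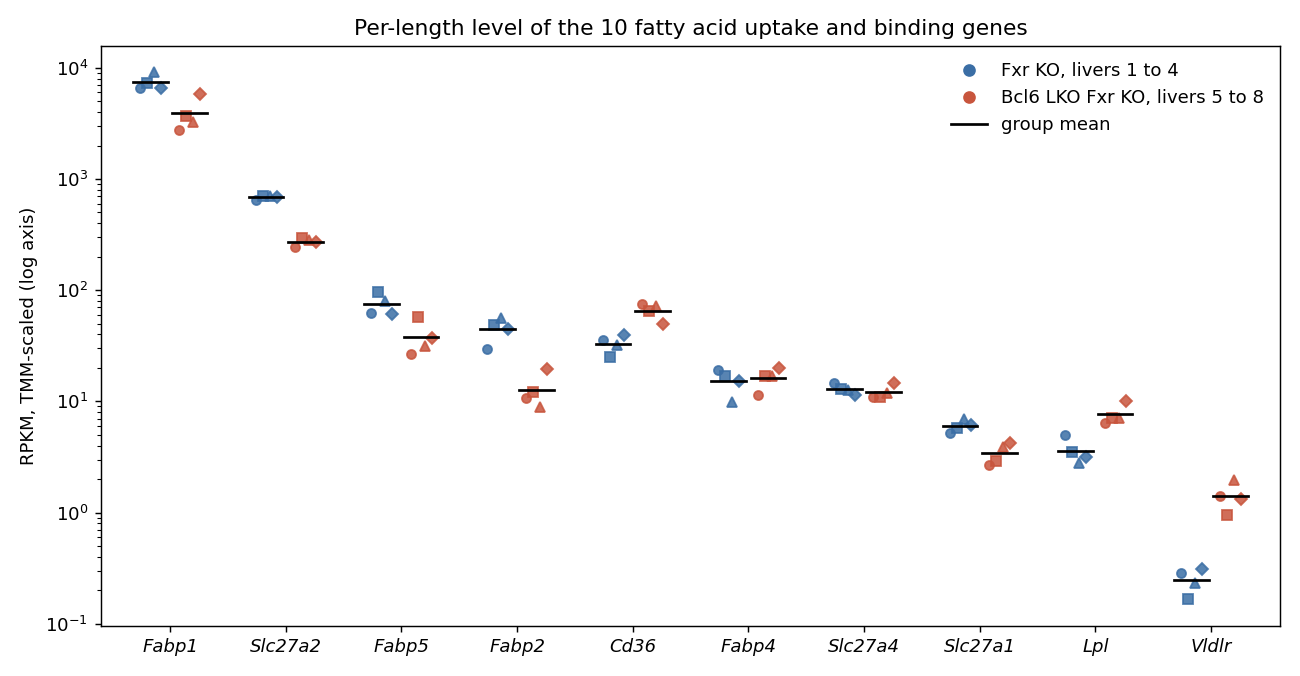
Per-length level (RPKM after TMM scaling, log axis) of each gene in each liver, blue for Fxr KO and red for Bcl6 LKO Fxr KO, with the group means as black lines and 1 marker shape for each liver of a group. Fabp1 stands highest in both genotypes at 7403 and 3889 RPKM, Vldlr lowest at 0.249 and 1.41 RPKM.

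Levels of different genes were compared only per transcript length, as RPKM (the CPM above divided by the transcript length in kilobases). In Fxr KO livers the order was Fabp1 (7403 ± 1185 RPKM, SD, n = 4), Slc27a2 (686 ± 30.5), Fabp5 (74.97 ± 16.5), Fabp2 (44.9 ± 11.3), Cd36 (32.9 ± 6.10), Fabp4 (15.4 ± 4.01), Slc27a4 (12.9 ± 1.41), Slc27a1 (6.01 ± 0.743), Lpl (3.61 ± 0.988) and Vldlr (0.249 ± 0.0639). The ranges over livers overlapped between Fabp2 and Cd36 and between Fabp4 and Slc27a4, and the other neighbours in this order were apart. In Bcl6 LKO Fxr KO livers, Fabp1 (3889 ± 1344 RPKM) and Slc27a2 (272 ± 21.2) were still highest, with Cd36 (65.4 ± 11.5) next. Fabp5 (38.2 ± 13.8), Fabp4 (16.3 ± 3.54), Fabp2 (12.8 ± 4.68), Slc27a4 (12.1 ± 1.69), Lpl (7.63 ± 1.62), Slc27a1 (3.41 ± 0.740) and Vldlr (1.41 ± 0.412) followed. Here the ranges of Cd36 and Fabp5, of Fabp4 and Fabp2, and of Fabp2 and Slc27a4 overlapped. Fabp1 ranked 9 from the top among all tested genes by its per-length level over the 8 livers, and Slc27a2 ranked 140, while Vldlr was above only 11.1% of tested genes.

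The 4 binding protein genes together fell from 7538 ± 1198 to 3956 ± 1355 RPKM, and Fabp1 made up 98.2% of this sum in both genotypes. The 3 transport protein genes together were at 705 ± 29.9 RPKM in Fxr KO livers and at 287 ± 21.6 RPKM in Bcl6 LKO Fxr KO livers. Slc27a4, which was not called, took 1.83 ± 0.276% of that sum in Fxr KO livers and 4.21 ± 0.615% in Bcl6 LKO Fxr KO livers. Cd36, Vldlr and Lpl together were at 36.8 ± 6.36 RPKM against 74.4 ± 10.1 RPKM, and Cd36 made up 89.4% and 87.5% of them. The ratio of Slc27a2 to Cd36, per length, was between 17.6 and 28.1 in Fxr KO livers and between 3.23 and 5.45 in Bcl6 LKO Fxr KO livers. These sums and ratios were described without a test of their own.

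**Figure D3:**
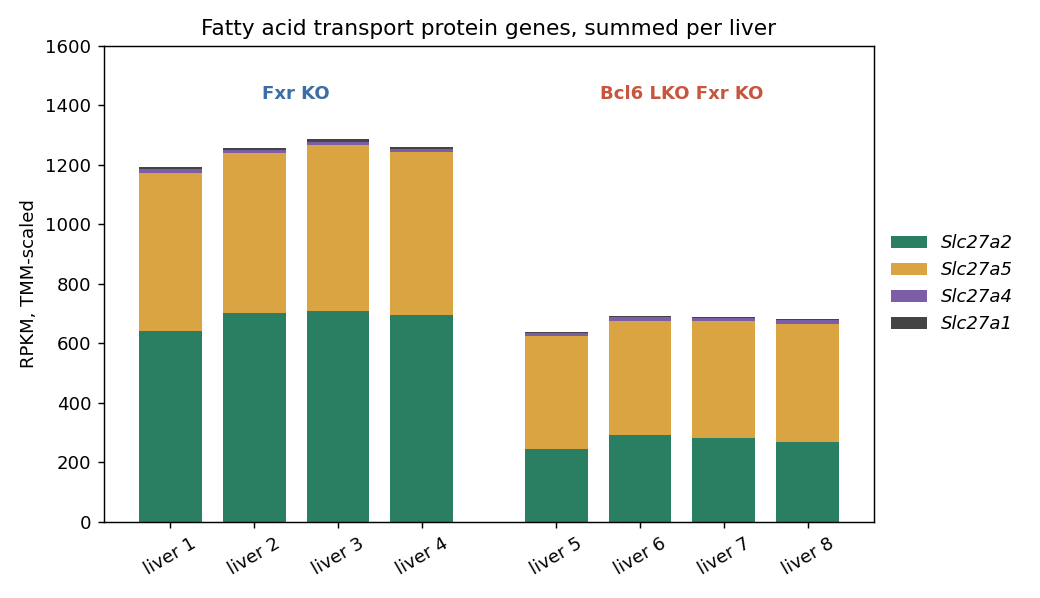
Summed per-length level (RPKM after TMM scaling, from 0) of the fatty acid transport protein genes in each liver, stacked by gene, with Slc27a5 added for comparison. Slc27a2 made up 53.8% to 55.8% of the sum in Fxr KO livers and 38.2% to 42.4% in Bcl6 LKO Fxr KO livers.

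Among the close relatives of these proteins, 16 genes were listed, 11 were tested, 2 were called higher and 5 lower, and the median of their log2 fold changes was -0.40. Over all tested genes, 16.2% were called higher and 13.5% lower. Of the 2 upward calls, Fabp12 passed the filter through the Bcl6 LKO Fxr KO livers alone. With at least 10 counts in every liver, 1 relative was called higher. Slc27a5, which encodes the bile acid-CoA ligase and fatty acid transporter FATP5, was between 1230 and 1292 CPM in Fxr KO livers and between 881 and 914 CPM in Bcl6 LKO Fxr KO livers (log2 fold change -0.49, standard error 0.10, edgeR adjusted p = 0.00376). Its fall was smaller than that of Slc27a2, and the per-length ratio of Slc27a2 to Slc27a5 was between 1.21 and 1.30 in Fxr KO livers and between 0.640 and 0.762 in the other genotype. With Slc27a5 added, Slc27a2 went from 55.0 ± 0.815% to 40.3 ± 1.81% of the summed transport protein genes. Scp2, the sterol carrier protein, fell by 1.45 on the log2 scale, Scarb1, the HDL receptor, by 0.71, and Got2, an aminotransferase also described as a plasma membrane fatty acid binding protein, by 0.49. Fabp12, a rarely described binding protein, was at 0 or 1 count in Fxr KO livers and at 12 to 30 counts in Bcl6 LKO Fxr KO livers, at least 6.07-fold higher against a floor of 3 counts per liver. Fabp3, the heart form, did not pass the filter, with 0 counts in every Fxr KO liver and 4, 2, 12 and 15 counts in livers 5 to 8. Slc27a6 and Fabp6 did not pass it either. Cavin1, a caveolar coat protein, rose by a log2 fold change of 0.64, and Slc27a3 and Fabp7 were not called (log2 fold changes 0.51 and 0.41).

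Once inside the cell, fatty acids are activated by acyl-CoA synthetases. Of 12 listed synthetases and acyl-CoA binding proteins, 10 were tested, 3 were called higher and 3 lower, with a median of 0.16. The same calls were given to 16.2% and 13.5% of all tested genes. Acsl1, the main long-chain synthetase of liver, was at 846 CPM on average in Fxr KO livers and 560 CPM in Bcl6 LKO Fxr KO livers (log2 fold change -0.60, standard error 0.13, edgeR adjusted p = 0.00464). Acsl5 went the other way, from 404 to 587 CPM on average (log2 fold change 0.54, standard error 0.12, edgeR adjusted p = 0.00394). Acbd4 and Acbd5, acyl-CoA binding proteins of peroxisomes, fell by 0.95 and 0.86 on the log2 scale, while Acbd3, a Golgi protein, rose by 0.54. Acsl3, Acsl4 and Dbi, the acyl-CoA binding protein itself, were not called, at log2 fold changes of 0.52, 0.14 and -0.073. The sign of Acsl4 was negative with total counts alone (-0.013), Acsl3 was called higher by limma voom (0.71, adjusted p = 0.0410), and Dbi was positive without liver 7 (0.0049).

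Lpl acts with a set of carriers, cofactors and inhibitors. Of 23 such genes and lipoprotein receptors, 22 were tested, 4 were called higher and 3 lower, with a median of -0.092. These shares were close to those of all tested genes, 16.2% higher and 13.5% lower. Apoc2, the cofactor that activates lipoprotein lipase, was between 107 and 127 CPM in Fxr KO livers and between 484 and 838 CPM in Bcl6 LKO Fxr KO livers (log2 fold change 2.42, standard error 0.17, edgeR adjusted p = 3.16e-07). The annotated gene Gm44805 shares exons with Apoc2 on the same strand. Apoc3, an inhibitor of the lipase, rose as well (log2 fold change 0.58), and Apoa5, which promotes lipolysis, fell by 0.84 on the log2 scale. Lipc, the hepatic lipase, was between 134 and 148 CPM in Fxr KO livers and between 11.2 and 31.9 CPM in Bcl6 LKO Fxr KO livers, a 6.81-fold fall (log2 fold change -2.77, standard error 0.26, edgeR adjusted p = 3.06e-05). Gpihbp1, the endothelial anchor of lipoprotein lipase, was called higher (log2 fold change 0.67, edgeR adjusted p = 0.0307), but its groups overlapped and the adjusted p was above the threshold without liver 1, 2, 4, 7 or 8, at most 0.0819 over all alternatives. Leaving out liver 1, 2, 4 or 8 left 2 of the 4 upward calls of this list.

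The inhibitor Angptl4 and the maturation factor Lmf1 were not called, at log2 fold changes of -0.45 and 0.036. Angptl4 was at 76.7 to 96.2 CPM in livers 5 to 7 and at 180 CPM in liver 8, and it was called lower without liver 8 (log2 fold change -0.81, edgeR adjusted p = 0.000714) and, with all 8 livers, by limma voom with sample weights (-0.75, adjusted p = 0.00409). Lmf1 was negative with limma voom (-0.065), without liver 4 (-0.059) or 8 (-0.093) and with total counts alone (-0.13). Mylip, a ubiquitin ligase that degrades the VLDL receptor, was at 9.12 and 8.09 CPM on average and was not called (log2 fold change -0.17).

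**Figure D4:**
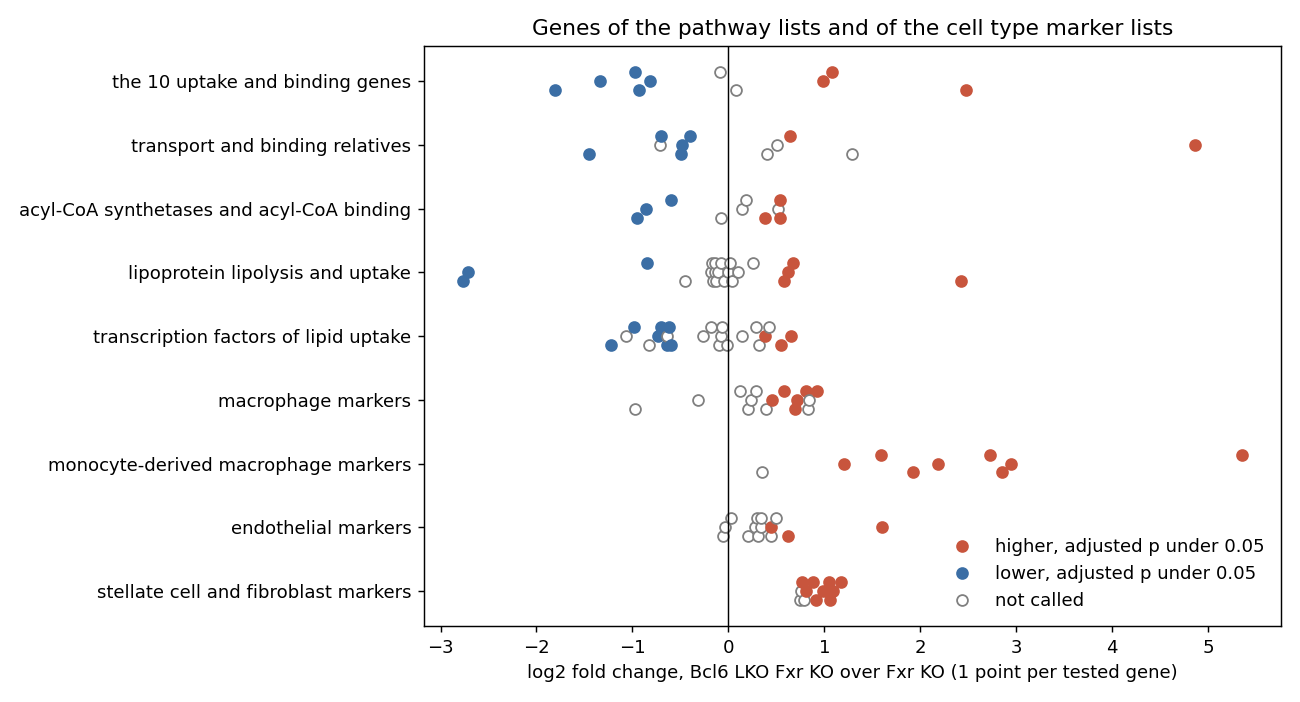
Log2 fold changes in Bcl6 LKO Fxr KO over Fxr KO livers, 1 point for each tested gene of 5 gene lists of lipid handling and 4 lists of cell type markers, filled red or blue where called higher or lower and open where not called. Vertical offsets within a row only separate points, and the points of the 10 genes fall on both sides of 0 with a median of -0.45, while the called macrophage, endothelial and stellate cell markers lie above 0. Not drawn are the adipocyte (0 called higher, 2 lower), cholangiocyte (2 higher, 0 lower), enterocyte (1 higher, 0 lower) and hepatocyte markers (2 higher, 2 lower).

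Of 23 transcription factors and coactivators known to act on lipid uptake genes, all 23 were tested, 3 were called higher and 7 lower, with a median of -0.18. The same calls were given to 16.2% and 13.5% of all tested genes. Ppara, the nuclear receptor that drives fatty acid catabolism and Fabp1 in liver, was at 205, 264, 269 and 296 CPM in Fxr KO livers and at 100, 132, 177 and 112 CPM in Bcl6 LKO Fxr KO livers (log2 fold change -0.99, standard error 0.17, edgeR adjusted p = 0.00104). Epas1, the hypoxia-inducible factor HIF-2α, fell by 1.22 on the log2 scale. Pparg, the adipogenic receptor known to drive Cd36 and Fabp4, was between 11.4 and 24.9 CPM against 16.3 to 26.1 CPM and was not called (log2 fold change 0.32, edgeR adjusted p = 0.34). Ppard and Nr1h2, the genes of PPARδ and LXRβ, rose by log2 fold changes of 0.65 and 0.55. Ppargc1a, a coactivator, was not called (log2 fold change -0.64, edgeR adjusted p = 0.31), and its value was 0.022 without liver 4.

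Liver holds several cell types that express some of the 10 genes, and in bulk RNA fewer cells of a type and less RNA per cell cannot be told apart. The calls in each marker list stand beside 16.2% higher and 13.5% lower over all tested genes. Of 15 macrophage markers, 6 were called higher and 0 lower, and their summed level was 588 to 820 CPM in Fxr KO livers and 839 to 1374 CPM in Bcl6 LKO Fxr KO livers. Without liver 3, 3 of them were called higher. Lyz2 and Cd68 rose by log2 fold changes of 0.81 and 0.93. Timd4 and Cd163, the only genes of this list with negative values, were not called, at -0.32 and -0.98. The other macrophage markers that were not called were between 0.12 and 0.84. Cd163 was called lower with DESeq2 (-0.99, adjusted p = 0.0179), limma voom (-1.04, adjusted p = 0.0383) and total counts alone (-1.13, adjusted p = 0.0311). It was also called lower without liver 1 (-1.19, adjusted p = 0.0150), which makes 1 macrophage marker lower under each of these alternatives. Of 10 markers of monocyte-derived macrophages, 9 were tested, 8 were called higher and 0 lower, and their sum was 22.4 to 54.4 CPM against 205 to 263 CPM. Some of these, Trem2 among them, passed the filter only through the Bcl6 LKO Fxr KO livers. With at least 10 counts in every liver, 3 were called higher, since fewer were tested. Trem2 and Cd9 rose by log2 fold changes of 2.85 and 2.72, and Cd9 is also expressed outside macrophages. Trem2 had 21, 7, 8 and 13 counts in Fxr KO livers. Macrophages express Cd36, Lpl, Vldlr, Fabp4 and Fabp5, and the part of these cells in the values of the 10 genes was not tested.

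Of 14 endothelial markers, 3 were called higher and 0 lower, beside 16.2% and 13.5% of all tested genes. Their sums were 259 to 351 CPM against 361 to 445 CPM. Vwf and Stab2 rose by log2 fold changes of 1.60 and 0.63, and Cdh5 and Lyve1 were not called, at -0.061 and -0.038. Of 12 stellate cell and fibroblast markers, 9 were called higher and 0 lower, with sums of 264 to 372 CPM against 544 to 664 CPM, and Rgs5 and Dcn rose by log2 fold changes of 1.09 and 1.05. Of 8 adipocyte markers, Adipoq had at most 1 count in a liver, Plin1, Lep and Ucp1 had 0, and only Cfd and Car3 were tested. Both were called lower, Cfd at least 18.7-fold against a floor of 3 counts per liver, and hepatocytes also express Car3. Of 8 enterocyte markers only Apoa4, which liver also makes, and Lgals4 were tested, and Apoa4 was called higher (log2 fold change 1.90). Of 8 cholangiocyte markers 6 were tested, and Krt19 and Spp1 were called higher (1.28 and 1.004). Krt19 was not called without liver 2, 3, 4, 5, 6 or 8 (edgeR adjusted p at most 0.0807). It had 20, 6, 5 and 8 counts in Fxr KO livers and passed the filter through the Bcl6 LKO Fxr KO livers alone. With at least 10 counts in every liver, 1 cholangiocyte marker was called higher. Sox9 was not called (-0.81), but was called lower without liver 3 (-0.99) and with total counts alone (-0.97), and Lgals4 (-0.27) was called lower without liver 8 (-0.72) and by limma voom (-0.64).

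The label liver was matched by the hepatocyte markers, 9 of which were tested. Alb and Hpx were called higher (log2 fold changes 1.60 and 0.84) and Ttr and Apob lower (-0.76 and -0.45), Apob not without liver 1, 2, 3, 4, 5, 7 or 8. With total counts alone, 5 of the 9 were called lower and 2 higher. The summed hepatocyte markers were between 67656 and 75100 CPM in Fxr KO livers and between 158952 and 182570 CPM in Bcl6 LKO Fxr KO livers, mostly Alb. The other 5 were not called, and the median log2 fold change of the 9 was -0.17. Fabp1 and Slc27a2, which hepatocytes express, were lower in livers in which Alb and Hpx were higher and Ttr and Apob lower. The part of cell composition in this was not tested.

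Within a genotype, the 10 genes did not vary as 1 block. Over the 45 pairs, the correlation of log2 CPM deviations from the genotype mean across the 8 livers was between -0.84 (Fabp5 with Vldlr) and 0.87 (Slc27a4 with Lpl), with a median of 0.082, and Fabp1 and Fabp2 stood at 0.83. Within single genotypes, of 4 livers each, some pairs had opposite signs, such as Fabp1 with Lpl (-0.70 in Fxr KO, 0.98 in Bcl6 LKO Fxr KO). Fabp1 and Fabp2 stood at 0.77 and 0.90. All these correlations are descriptions over few livers that share library and depth within each point. Across all 8 livers, the genes outside the 10 most like Vldlr in log2 CPM were Sub1, Frk and Vsig10 (Pearson r = 0.988, 0.987 and 0.987), and those most like Fabp2 were Hsd17b10, Idh3g and Marc1 (0.988, 0.988 and 0.987). The livers fall into 2 genotypes, so these values mostly carry the genotype difference, and 630 tested genes were above 0.9 with Vldlr and 338 with Fabp2.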

How the data were processed

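Counts of 8 livers, 4 Fxr KO and 4 Bcl6 LKO Fxr KO, were used, grouped by their labelled genotype and numbered 1 to 8 by the library name in their labels. Their titles carry other numbers, some of them consecutive between the genotypes, and the labels do not say what these mark. The 10 genes, the other gene lists and the rule for the genes named were chosen with earlier results of these data known.

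Per the labels and the study's methods, polyA RNA from Trizol and column extraction was made into stranded libraries and sequenced as 100 bp single-end reads. With STAR 2.5.2 the authors mapped them to mm10, dropping reads with more than 1 location or more than 4 mismatches. The deposited values are raw counts over exons from HOMER 4.10, 1 transcript standing for each gene. The stated counting options name no strand. The deposited table also holds each transcript's length, used here for RPKM. The study's methods name DESeq2 for differential expression.

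Counts were tested in R 4.3.3 with edgeR 4.0.16 (filterByExpr, TMM, robust quasi-likelihood fit, genotype as the term). The p-values of all 12340 tested genes were adjusted by Benjamini-Hochberg, and a call needed an adjusted p under 0.05. Means and SDs are of TMM-scaled CPM or RPKM. Permutation tests on log2 CPM were exact and two-sided, over 70 orderings of the livers. No set test was run. The scripts were tested on simulated data.

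Genes named were the 10, 26 other genes written out by symbol, and in each direction the 2 tested genes of each list with the lowest adjusted p, with Bcl6, Nr1h4 and, for Vldlr and Fabp2, the 3 genes most like each. The lists were 4 of lipid handling (relatives, acyl-CoA genes, lipolysis and receptors, transcription factors) and 8 of cell markers. Tf, a hepatocyte marker, was not found under that symbol. Cdx1, Cdx2, Sis, Alpi, Lct, Vil1, Adipoq, Plin1, Lep and Ucp1 were named after their values were seen. A few genes that the rule gives are not reported here.

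Alternatives were DESeq2 1.42.0, limma 3.58.1 (voom with sample weights), RLE size factors, total counts alone, the 50 most counted genes left out, genes left unfiltered, a minimum of 10 counts in every liver, an absolute log2 fold change above 0.5 and each liver left out. Promoter sequences are from RefSeq (GRCm38.p6), exons and shared windows from GENCODE. The half-site search was added after seeing the data. Protein sequences were not used here.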

Additional observations from a re-analysis of the deposited data

Results flagged for a closer look

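Each gene was checked in each group of 4 livers for 1 liver far from the other 3, by its gap to the nearest of them as a share of the group's range, against the limit of Dixon's test for 4 values. None of the 20 groups of the 10 genes passed it. Of 104 groups of other named genes 4 passed, where chance alone flags about 1 in 20 groups, or 5.2. Slc27a3 was at 1.42 CPM in liver 4 and at 0.967 to 1.04 CPM in the other Fxr KO livers (a share of 0.838). Apoc3 was at 1230 CPM in liver 4 and at 1590 to 1660 CPM in the others (0.833). Krt19 was at 2.08 CPM in liver 1 and at 0.537 to 0.757 CPM in the others (0.858). Lgals4 was at 12.9 CPM in liver 1 and at 17.2 to 17.4 CPM in the others (0.966).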

How the results depend on the processing

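The count of the 10 genes called higher was 3 under every alternative run, and the count called lower was 5 under all of them except without liver 8, where it was 4, since Fabp5 was no longer called. With each liver left out in turn, 3 were called higher throughout and 4 to 5 lower. Of 150 alternative log2 fold changes of the 10 genes, 145 kept their direction and their side of the threshold, 1 lost the call and 4 changed sign. The sign changes were all of Fabp4, which was never called, at -0.051 with limma voom, at -0.078 with total counts alone, and from -0.083 to 0.22 with a liver left out. Over all alternatives the adjusted p of Fabp5 was between 0.000331 and 0.0589. The per-length level of Slc27a2 in Fxr KO livers moved to 726 RPKM with total counts alone. Of 785 values of 53 other named genes, 743 stayed, 20 lost a call, 11 gained one and 11 changed sign, in Acsl4 (-0.013 with total counts alone), Dbi (from -0.15 to 0.0049 with a liver left out), Lmf1 (-0.065 with voom, -0.13 with total counts alone, from -0.093 to 0.12 with a liver left out), Ppargc1a (from -0.90 to 0.022), Cdh5 (from -0.16 to 0.034) and Lyve1 (from -0.17 to 0.094). With at least 10 counts in every liver, 3 monocyte-derived macrophage markers were called higher in place of 8, since fewer were tested. No paired analysis was run, because the labels do not say that the consecutive numbers in some titles mark pairs and give the genotypes no replicate numbers in common. Genes with few reads, such as Vldlr in Fxr KO livers, are limited by depth. The groups differ in the share of counts held by the most counted genes. With the 50 most counted genes left out (any of the 10 genes kept), 3 of the 10 were called higher and 5 lower. The median log2 fold change of all tested genes was then -0.010. Beyond the alternatives given, the part of that difference in the values was not tested.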
